A study of Xenopus laevis with 54 samples.

Results

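Newly made RNA was set against total RNA in embryos of the frog Xenopus laevis 9 hours post fertilization (hpf), near the end of the blastula stages. The comparison holds 4 of the 54 libraries of the series, namely bead RNA of clutch 1 and clutch 2 and total RNA of the same 2 clutches, all from experiment 1. They were taken by fraction, time and experiment as the labels give them, and a bead library was paired with the total RNA library of its own clutch by replicate number. All embryos were wild type and were kept at 22 °C in 0.1x MMR medium. All had received 10 nl of 50 mM 5-ethynyl uridine (EU) at the 1-cell stage, the total RNA embryos included, for about 0.5 mM inside. EU is a uridine analog that cells build into RNA as they make it. Biotin was attached to it by click chemistry and the tagged RNA was pulled down on streptavidin beads, so that the bead fraction is enriched for RNA made since fertilization. Total RNA holds stored maternal RNA together with the new RNA. Bead libraries of embryos that had received no EU are not named in the labels, so RNA that sticks to the beads without the label was not measured here. Whole embryos were used, and more cells that make an RNA cannot be told apart from more RNA made per cell.

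The egg loads the embryo with messenger RNA, and the early cleavages run on that store with little transcription. At the midblastula transition the genome of the embryo is switched on broadly, and among the first messages are those that lay out the germ layers. Nodal, Wnt and BMP signals and the T-box, Mix-type homeobox, Sox17 and Ventx transcription factors specify mesoderm, endoderm and the dorsal and ventral sides. The genome of this species came from the joining of 2 frog genomes, and many genes have an L and an S copy.

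Of 50489 genes in the deposited table, 20465 had a value of at least 10 in 2 or more of the 4 libraries and were tested. The values are normalized and rounded, so the depth behind them is unknown, and their sums are set by the scaling. Genes above 0 numbered 28348 and 26114 in the bead libraries of clutches 1 and 2, and 28620 and 28666 in the total RNA libraries. A difference is bead minus total RNA on the scale of log2(value + 1), which understates the change of low genes, and it says how a gene stands relative to the other genes of its library. The median over all genes was -0.06. Calls needed a difference of 2-fold or more and an adjusted p below 0.05 in limma. That fit took the 20 bead and total RNA libraries of 5 to 9 hpf for its estimate of spread and the clutch as a block.

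The beads held 609 genes above total RNA at 9 hpf, 2.98% of those tested, and 1176 below it, 5.75%. Beads held more RNA of many early embryonic regulators and of both copies of ier5, an immediate early gene. Tested genes with a mean under 1 in the egg were often higher as well (17.4%). The organizer (20%), BMP (16.7%) and ectoderm (14.9%) lists were near that share, and the Nodal (33.3%) and mesendoderm (27.4%) lists above it. Whether an excess is particular to regulators was not tested. The beads held less RNA of ribosomal proteins, respiratory chain subunits and small spliceosome proteins. Transfer RNA rows that passed the minimum, some through total RNA alone, were mostly lower too. Messages of cell cycle regulators and of the germ plasm had differences near those of all genes. Each of the 609 was above total RNA in both clutches and 518 of them by at least 2-fold in both. Each of the 1176 was below in both, and 825 by at least 2-fold in both. The fractions did not overlap for 592 of the 609 and 1132 of the 1176. The calls were made on these same libraries, so a shared sign or a lack of overlap among called genes is no separate evidence. Without the bead library of clutch 2, 342 genes were higher and 777 lower, and without the total RNA library of clutch 1, 381 were higher. The fit of the 4 libraries alone, with 1 residual degree of freedom, called 919 genes higher (4.49%) and 1144 lower (5.59%). Its small p-values rest mostly on a spread shared across genes, not on that of the gene itself between clutches. Higher genes were 34.1% of all calls in the 20-library fit and 45% under quantile normalization, which gave 1117 higher and 1365 lower.

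**Figure D1:**
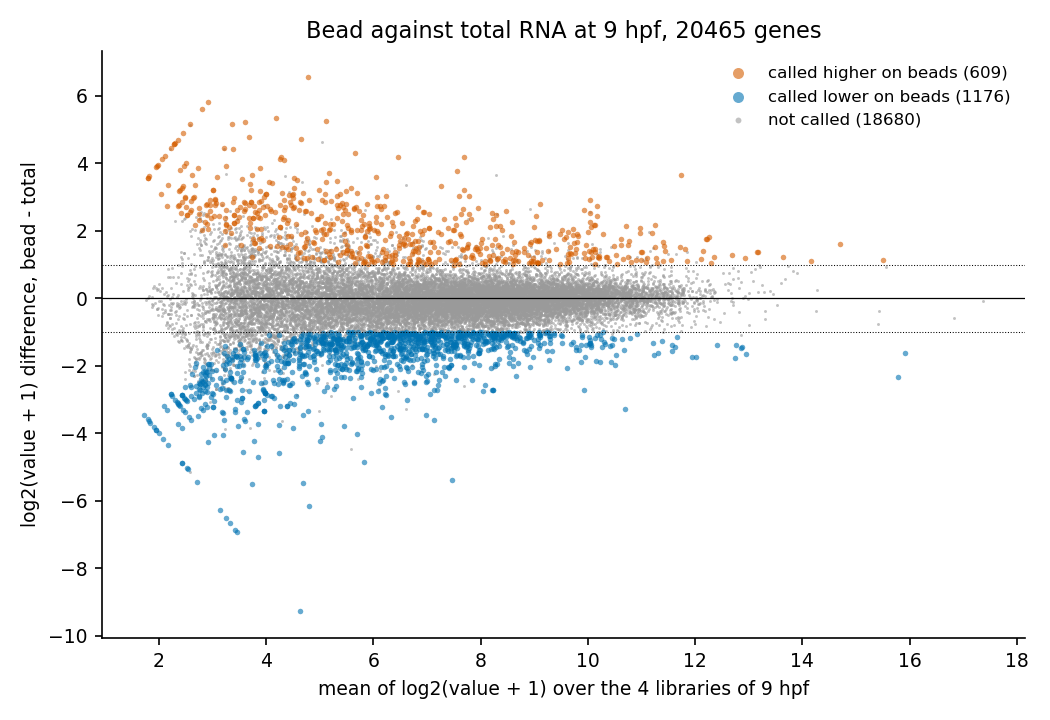
Difference between bead and total RNA at 9 hpf (y axis, log2(value + 1), bead minus total) against the mean of log2(value + 1) over the 4 libraries (x axis) for 20465 genes. Orange points are the 609 genes called higher on the beads, blue points the 1176 called lower and grey points those not called, with dotted lines at 2-fold, and the calls reach from the lowest to near the highest levels.

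Among the genes tested, the share called higher on the beads was smaller where the egg held more. The 2 egg libraries of experiment 2 were not used in the comparison, and genes were put in 4 classes by their mean there. Among 1208 genes with an egg mean under 1, 210 were higher on the beads (17.4%) and 73 lower (6.04%), and the median difference was 0.77. Of 1509 genes with an egg mean of 1 to under 10, 118 were higher (7.82%). In the class of 10 to under 100, with 5268 genes, 160 were higher (3.04%). The largest class, with 12480 genes at 100 or more, had 121 higher (0.97%) and 705 lower (5.65%), and a median of -0.07. The share of higher genes thus went down from class to class, while the share of lower genes was 4.37% to 6.3% in all classes. Genes near 0 in the egg could pass the minimum through the bead libraries alone, or through total RNA alone. The shares in the low classes are therefore drawn partly from how genes were chosen, and the size of that part was not tested. The 4-library fit called 377 higher genes in the lowest class and 123 in the highest.

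**Figure D2:**
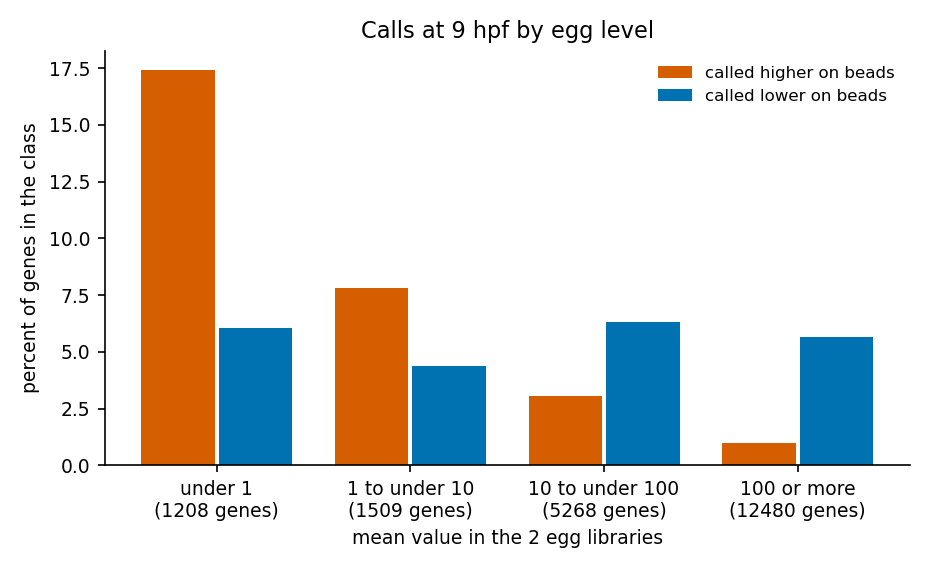
Share of genes called higher (orange) and lower (blue) on the beads at 9 hpf, in percent of the genes of each class (y axis), by the mean value in the 2 egg libraries (x axis). The share of higher genes is 17.4% where the egg mean is under 1 and 0.97% where it is 100 or more. Only genes that passed the minimum at 9 hpf are counted, and some passed through the beads alone.

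Genes that the egg lacks were looked at apart, because little of their RNA at 9 hpf can be maternal. Leaving out transfer RNAs, 215 genes had an egg mean under 1 and a mean of at least 100 over the 4 libraries of 9 hpf. That mean holds the compared libraries themselves, so genes high in 1 fraction alone could enter, as btg-x_gene37239 did through the beads. The values below are thus drawn partly from such genes and are no separate measure of enrichment. Their median difference was 1.17, a 2.25-fold excess on the beads, and the middle of the distribution lay between 0.57 and 1.59. Of these genes 62 were higher and 4 lower in the 20-library fit, and 128 were higher and 6 lower in the fit of 4 libraries. The median was 1.38 for 15 genes still under 1 in total RNA at 7 hpf, 1.28 for 86 genes at 1 to under 10, and 1.03 for both the 92 genes at 10 to under 100 and the 22 genes at 100 or more. Among members without a call, chosen after their values were seen, the apelin receptor gene aplnr.L had 190 and 284 on the beads, against 371 and 468 in total RNA. The Notch ligand gene dlc.L had 118 and 196 against 247 and 245. Genes that the egg lacks were thus not all enriched, and differences ran from -2.25 to 6.55.

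Nodal ligands and the factors around them stood mostly above total RNA. Of 36 genes of the Nodal and early Wnt list in the table, 30 passed the minimum. In the 20-library fit 10 were higher (33.3%, beside 2.98% of all genes) and 1 was lower (3.33%, beside 5.75%). In the 4-library fit 16 were higher and 1 lower. The list's median difference was 1.37, against -0.06 over all genes. With any 1 of the 4 libraries left out, 3 to 6 members were higher. The ligand gene nodal5.L had values of 120 and 100 on the beads, against 12 and 21 in total RNA, a difference of 2.71 ± 0.59 (SE, adjusted p = 0.00122). The homeobox genes sia1.L and sia2.S, direct targets of maternal Wnt signaling on the dorsal side, stood at 493 and 425 and at 81 and 53 on the beads, against 159 and 167 and 7 and 10 in total RNA. Their differences were 1.48 ± 0.40 and 2.83 ± 0.61 (SE, adjusted p = 0.00705 and 0.00114), and sia1.L missed the threshold without the bead library of clutch 2 (adjusted p = 0.0511) and without the total RNA library of clutch 1 (0.0851). In all 3 genes both bead values lay above both total values. The Nodal antagonist gene lefty.L, named outside the rule for genes, had 632 and 609 on the beads against 247 and 231 in total RNA. The forkhead gene foxh1.2.L, highest of the list, was at 4017 and 2930 on the beads, against 2316 and 2015 in total RNA and was not called (0.67 ± 0.65, SE, adjusted p = 0.507; 4.14e-05 in the 4-library fit, with a difference under 2-fold). The lower member was gdf1.L_gene48962, 1 of several rows for this maternal ligand, with 10 and 6 on the beads, against 34 and 62 in total RNA.

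Transcription factors of mesoderm and endoderm had the most calls of any regulator list, while the Nodal list had the larger share higher (33.3%). Of 76 listed, 62 were tested. In the 20-library fit 17 were higher (27.4%, beside 2.98% of all genes) and 0 lower, and in the 4-library fit 37 and 0. Their median was 1.29, both bead libraries were above both total RNA libraries for 55 of them, and 5 to 10 were higher with any 1 library left out. For comparison, the groups did not overlap upward for 22.4% of all genes tested. The endoderm factor gene sox17b.1.L was at 2289 and 2411 on the beads, against 463 and 580 in total RNA, a difference of 2.18 ± 0.25 (SE, adjusted p = 4.8e-07). The zinc finger repressor gene snai1.L was at 2355 and 2428 against 653 and 631 (1.90 ± 0.13, SE, adjusted p = 2.14e-10). The notochord homeobox gene not.L had 1859 and 1244 against 558 and 424 (1.64 ± 0.19, SE, adjusted p = 1.1e-06). In each of these genes the lower bead value was more than 2 times the higher total value. The Mix-type gene mix1.L just missed the threshold in the 20-library fit. Its values were 5699 and 6158 on the beads, against 2231 and 2322 in total RNA, with a difference of 1.38 ± 0.47 (SE, adjusted p = 0.0537) in the 20-library fit and an adjusted p of 8.74e-09 in the 4-library fit. At 5 hpf the same gene had 4 and 12 on the beads against 3 and 1 in total RNA, and such low values enter the pooled estimate of spread. Its copy mix1.S, outside the rule for names, had 4816 and 4526 against 1643 and 1545 and was called.

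**Figure D3:**
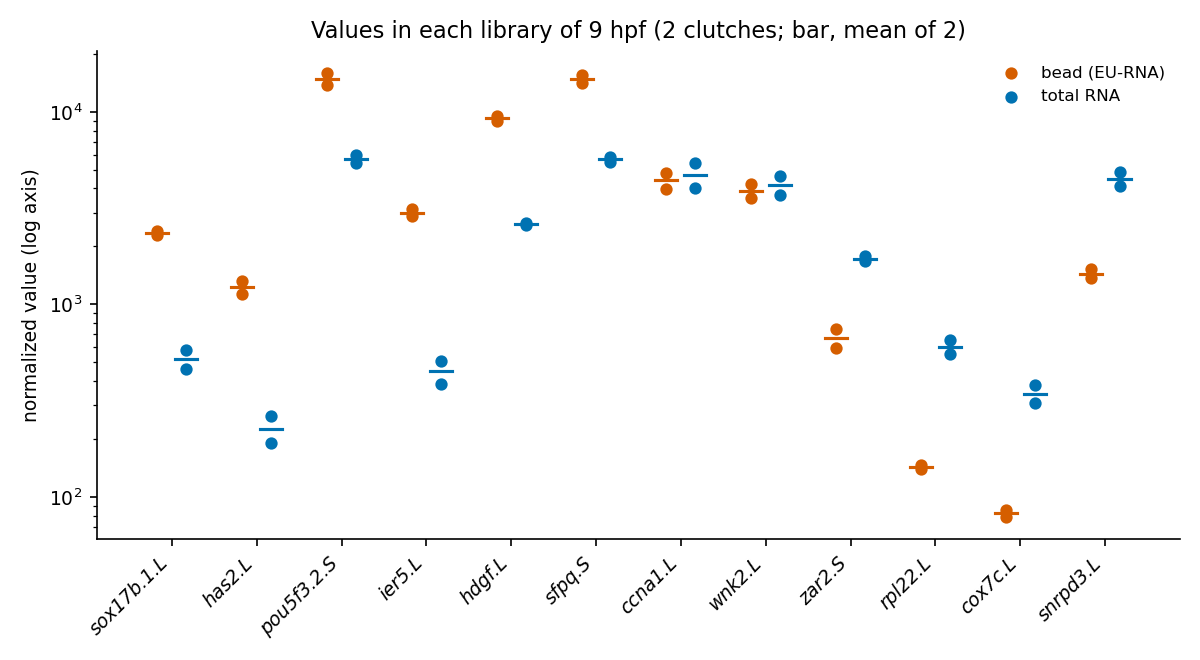
Normalized values in each library of 9 hpf (y axis, log scale) for 12 genes, with bead RNA in orange left of total RNA in blue, 1 point per clutch and a bar at the mean of 2. Bead values lie above total values for sox17b.1.L to sfpq.S, the groups overlap for ccna1.L and wnk2.L, and bead values lie below for zar2.S to snrpd3.L.

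Organizer and marginal zone signals were listed together with membrane ligands, intracellular antagonists and a matrix enzyme. Of 57 listed, 40 were tested, 8 were higher (20%, beside 2.98% of all genes) and 0 lower, and the median was 1.02. The 4-library fit had 18 higher and 0 lower, and 4 were higher without any 1 library. The hyaluronan synthase gene has2.L was at 1328 and 1136 on the beads, against 262 and 191 in total RNA, a 5.44-fold excess of the mean and a difference of 2.45 ± 0.47 (SE, adjusted p = 0.000343). From 5 to 9 hpf has2.L had bead values of 0, 2, 205, 530 and 1328 in clutch 1 and total values of 0, 0, 18, 137 and 262, so both fractions gained it from 7 hpf on and the beads held more at each of these times. The Notch ligand gene jag1.L was at 577 and 531 against 220 and 171 (1.51 ± 0.21, SE, adjusted p = 1.21e-05), and lost its call without the clutch as a block. The gene spry2.S, for an intracellular FGF antagonist, had 353 and 521 against 171 and 223, and did likewise. Of the other called members, wnt8a.L codes for a ventrolateral Wnt ligand and chrd.1.S for the BMP antagonist Chordin. Values of wnt8a.L were 635 and 748 on the beads against 154 and 159 in total RNA, and those of chrd.1.S were 1053 and 937 against 393 and 356. The maternal Wnt ligand gene wnt11b.L had 1031 and 936 on the beads, against 1051 and 1225 in total RNA, with no call (-0.21 ± 0.13, SE, adjusted p = 0.277).

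BMP ligands and ventral genes had 7 of 42 tested members higher (16.7%, beside 2.98% of all genes) and 0 lower. The list had 53 genes in the table and a median of 0.86. The counts were 14 and 0 in the 4-library fit, and 2 to 5 were higher with any 1 library left out. The Ventx homeobox factors carry out BMP signaling in the ventral mesoderm. Among them ventx1.1.L was at 824 and 869 on the beads against 257 and 297 in total RNA (1.61 ± 0.36, SE, adjusted p = 0.00141). The S copy ventx1.1.S was at 382 and 380 against 108 and 94 (1.91 ± 0.51, SE, adjusted p = 0.00694), which missed the threshold in 3 of the 4 fits without a library (adjusted p = 0.0550 to 0.0680). The gene szl.S codes for Sizzled, a secreted inhibitor of Chordin cleavage, and had 182 and 172 against 67 and 66 (1.40 ± 0.30, SE, adjusted p = 0.00096). Groups were well apart in all 3. The most abundant member, ventx2.2.S, was at 5103 and 5003 on the beads, against 2043 and 2042 in total RNA, with an adjusted p of 0.0698 in the 20-library fit and 2e-08 in the 4-library fit.

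Ectoderm genes had more higher than lower calls. Of 101 listed, 74 were tested, 11 were higher and 2 lower (22 and 2 in the 4-library fit; 3 to 7 and 2 to 4 with any 1 library left out), and the median was 0.68. The higher members are 14.9% of those tested, beside 2.98% of all genes, and the lower members 2.7%, beside 5.75%. Hairy and enhancer of split genes, which code for repressors that answer to Notch, were among the higher ones. For hes5.8.L the values were 79 and 172 on the beads, against 7 and 35 in total RNA, and for hes4.L they were 364 and 341 against 145 and 160 (1.20 ± 0.23, SE, adjusted p = 0.000368). The tight junction gene cldn6.2.S went the other way, with 727 and 634 on the beads, against 1628 and 1604 in total RNA (-1.25 ± 0.12, SE, adjusted p = 3e-08). The other lower member was cldn6.S, at 9 and 1 against 24 and 20. The animal cap forkhead gene foxi4.2.S had 7366 and 5028 on the beads, against 3210 and 2543 in total RNA and was not called in the 20-library fit (adjusted p = 0.467; 1.46e-07 in the 4-library fit, where it was called).

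Pou5f3, Sox and Klf factors hold early cells in a competent state, and 3 of 37 tested members were higher and 0 lower. The shares were 8.11% and 0%, beside 2.98% and 5.75% of all genes. The 4-library fit had 5 higher and 0 lower, and in it 4.49% of all genes were higher. The list has 41 genes in the table and a median of 0.41. The POU gene pou5f3.2.S was at 15930 and 13854 on the beads against 5954 and 5431 in total RNA, a difference of 1.39 ± 0.37 (SE, adjusted p = 0.0225). The Krüppel-like gene klf17.1.S had 3480 and 3166 against 1316 and 1249 (1.37 ± 0.42, SE, adjusted p = 0.0386), and sox21.S had 153 and 114 against 32 and 36 (1.93 ± 0.62, SE, adjusted p = 0.0230). None of the 3 groups overlapped, yet all 3 missed the threshold when any 1 library of 9 hpf was left out (adjusted p = 0.0514 to 0.198), and pou5f3.2.S was at 0.86 under quantile normalization. The copy pou5f3.2.L, with 19480 and 18939 on the beads, against 11051 and 10800 in total RNA, differed by 0.81 ± 0.20 (SE, adjusted p = 0.0123), short of 2-fold.

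Immediate early and stress genes answer quickly to signals, and 4 of 60 tested were higher and 1 lower, with a median of 0.36. The shares were 6.67% and 1.67%, beside 2.98% and 5.75% of all genes. The 4-library fit had 5 higher and 1 lower, and 2 to 3 were higher with any 1 library left out. The nuclear factor gene ier5.L had the smallest adjusted p of the list, with 3125 and 2869 on the beads, against 388 and 510 in total RNA (2.75 ± 0.17, SE, adjusted p = 5.78e-11). Its copy ier5.S had 2462 and 1980 against 517 and 509 (2.10 ± 0.15, SE, adjusted p = 4.26e-10). The egg held 166 and 231 of ier5.L and 636 and 766 of ier5.S, so these are messages present from the start that stand high on the beads at 9 hpf. From 5 to 9 hpf ier5.L had bead values of 274, 203, 670, 1720 and 3125 and total values of 149, 173, 160, 294 and 388 in clutch 1. The AP-1 genes fos.L and fosl2.S, at 41 and 28 and at 172 and 158 on the beads against 14 and 9 and 73 and 84 in total RNA, were also higher. The lower member was ier3.L with 35 and 44 against 91 and 95. The decay factor gene zfp36l2.L, the most abundant, had 3220 and 2313 on the beads, against 4278 and 3839 in total RNA, a difference of -0.57 ± 0.12 (SE, adjusted p = 0.00129) that is less than 2-fold.

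Of the 5 most abundant genes with a symbol called higher, pou5f3.2.S is a patterning gene and the other 4 are not. The paraspeckle protein gene sfpq.S was at 15521 and 14083 on the beads, against 5469 and 5856 in total RNA (1.39 ± 0.06, SE, adjusted p = 7.78e-14). The growth factor gene hdgf.L, whose product binds chromatin, was at 8974 and 9527 against 2639 and 2583 (1.82 ± 0.09, SE, adjusted p = 7.57e-13). For marcksl1.S, a regulator of the actin cortex, values were 13317 and 10437 against 5205 and 5114, and for the acidic nuclear protein gene anp32c.S they were 10383 and 10292 against 4301 and 4133. All 4 have messages in the egg, at 1271 to 3671, and none of their groups overlapped. Under quantile normalization sfpq.S and marcksl1.S came to 0.89 and 0.81, under 2-fold, with adjusted p-values of 1.17e-10 and 2.16e-08, and anp32c.S also lost its call by size.

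Total RNA values were 62 or less for 9 of the 10 largest differences on the higher side that the rule took. The rows btg-x_gene37239, f2rl3.S and post.L_gene45897 were under 10 in both total RNA libraries and passed the minimum through the beads alone. Their place among the largest is thus set partly by how rows were chosen. Among the 10, ptpn6.S, a tyrosine phosphatase gene, was at 1267 and 606 on the beads, against 62 and 36 in total RNA (4.18 ± 0.76, SE, adjusted p = 0.00168). The row btg-x_gene34835, named for an antiproliferative family of mRNA decay factors, had 3087 and 2694 against 444 and 328, and a second row of that name, btg-x_gene37239, had 355 and 195 against 0 and 7. Rows of 1 name can share reads, so their split is uncertain. The guidance receptor gene nrp1.L was at 101 and 172 against 10 and 12, sox12.S at 79 and 162 against 13 and 13, and hoxc11.S at 79 and 185 against 11 and 16. In these 3 the clutch 2 bead value was the higher, and nrp1.L lost its call without that library (adjusted p = 0.0666) and hoxc11.S without the clutch as a block (0.0636). The receptor gene f2rl3.S had 16 and 125 against 5 and 4 and lost its call without the bead library of clutch 2 (adjusted p = 0.205) and without the total RNA library of clutch 2 (0.0792). The other 3 of the 10, post.L_gene45897, rtbdn.S and rcsd1.S, had 71 to 104 on the beads and 4 to 12 in total RNA. The call of rcsd1.S was lost without the bead library of clutch 2, without the total RNA library of clutch 1 and without the block (adjusted p = 0.104 to 0.128), and that of btg-x_gene34835 with a pseudocount of 0.5 (0.0687).

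Largest differences on the lower side included rows listed at 0 on the beads. Rows at 0 in both bead libraries, and ltb4r.S, passed the minimum of 10 through total RNA alone. Their place among the largest is thus set partly by how rows were chosen. The deubiquitinase row usp36.S_gene31866 was at 0 and 0 on the beads, against 95 and 139 in total RNA, with 43 and 100 in the flowthrough, the RNA not captured. The row rhov.L_gene36539 was at 0 and 0 against 70 and 82, and slc66a1.S at 0 and 0 against 22 and 80. The call of rhov.L_gene36539 was lost without the bead library of clutch 2 (difference -5.41). The ribosome biogenesis factor gene rbis.L had 7 and 13 on the beads, against 321 and 288 in total RNA (-4.85 ± 0.57, SE, adjusted p = 6.87e-07), with only 12 and 15 in flowthrough. The small membrane protein gene smim15.L was at 14 and 10 against 244 and 175 (-4.01 ± 0.29, SE, adjusted p = 2.18e-10), and at 36 and 32 in flowthrough. For rbis.L and smim15.L bead and flowthrough values were thus both far below total RNA. The leukotriene receptor gene ltb4r.S had 3 and 0 on the beads against 91 and 87. The gene snapc4.L, at 61 and 0 against 145 and 128, was called with a 0 in clutch 2. Without that library its difference was -1.49 (adjusted p = 0.261), and in the 4-library fit its adjusted p was 0.434. The call of slc66a1.S was lost in 3 of the 4 fits without a library, with adjusted p-values of 0.0829 to 0.144.

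Among the most abundant lower genes with a symbol were the mRNA export factor genes alyref.L and alyref.S and the adaptor gene ap1m2.S. Values of alyref.L were 3879 and 2902 on the beads against 9031 and 8424 in total RNA (-1.38 ± 0.14, SE, adjusted p = 1.27e-05), and those of alyref.S were 2324 and 2081 against 5035 and 4617. The groups were apart in both copies. For ap1m2.S, with 5504 and 3834 against 11262 and 13678, the clutches differed in size, and its adjusted p was 0.126 in the 4-library fit.

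Of the protein-coding lists, ribosomal proteins had the most lower members. Of 136 tested 65 were lower, 0 were higher and the median was -1.00, against 5.75% of all genes lower (66 in the 4-library fit, 52 to 71 with any 1 library left out). Values of rpl22.L were 140 and 146 on the beads, against 552 and 650 in total RNA (-2.06 ± 0.13, SE, adjusted p = 6.09e-11). For rpl27.L they were 179 and 209 against 720 and 850 (-2.01 ± 0.16, SE, adjusted p = 1e-09), and for rpl29.S 68 and 85 against 257 and 266. All bead values of the 3 genes were below all total values. The most abundant member not called, rpl3.L, had 576 and 582 against 711 and 848 (-0.42 ± 0.12, SE, adjusted p = 0.0124).

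The same direction was seen for other gene groups of basic metabolism, least for the proteasome. Lower members were 39.6% of respiratory chain genes, 27.8% of mitochondrial ribosomal proteins and 12.3% of proteasome subunits, beside 5.75% of all genes. Nuclear genes of the respiratory chain had 55 of 139 lower and 0 higher (50 and 0 in the 4-library fit, 35 to 59 lower with any 1 library left out), with a median of -0.83. The cytochrome oxidase subunit gene cox7c.L was at 86 and 79 on the beads, against 306 and 381 in total RNA (-2.04 ± 0.17, SE, adjusted p = 3.85e-09), while atp5f1b.S, the catalytic ATP synthase subunit, was at 1081 and 1143 against 966 and 1118 (0.10 ± 0.09, SE, adjusted p = 0.447). Mitochondrial ribosomal proteins had 27 of 97 lower and 1 higher, with a median of -0.75. The row mrpl9.S_gene1271 was at 66 and 48 against 345 and 401 (-2.70 ± 0.18, SE, adjusted p = 1.12e-10), and the higher member, mrps2.L_gene12843, at 302 and 422 against 126 and 166. Proteasome subunits had 8 of 65 lower and 0 higher, with a median of -0.39 (6 lower in the 4-library fit, 4 to 11 with any 1 library left out). Among them psmd8.S was at 572 and 465 against 1319 and 1339 (-1.36 ± 0.15, SE, adjusted p = 9.59e-07). Each of these lists therefore held both members well below total RNA and members near it.

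RNA processing factors parted by family, a division made after the values were seen. Of 115 splicing genes tested 4 were higher (3.48%) and 11 lower (9.57%), beside 2.98% and 5.75% of all genes, with a median of -0.09. All 11 lower genes were among the 19 snrp genes (median -1.07), which code for proteins of the small nuclear ribonucleoproteins. Values of snrpd3.L were 1527 and 1366 on the beads, against 4874 and 4128 in total RNA (-1.63 ± 0.13, SE, adjusted p = 1.26e-07), and those of snrpc.S were 1680 and 1766 against 4235 and 4040 (-1.26 ± 0.08, SE, adjusted p = 2.15e-11). The 34 hnRNP genes had a median of 0.02 and the 19 SR protein genes of 0.31. The 4 higher genes were prpf38b.L, tra2a.L, srsf2.L and hnrnpul1.L, the last with only 13 and 13 on the beads against 1 and 5. Of these srsf2.L had 4503 and 3763 on the beads against 1493 and 1398 in total RNA (1.51 ± 0.14, SE, adjusted p = 2.63e-07). The nuclear matrix gene hnrnpu.L, the most abundant without a call, had 18876 and 21138 against 12352 and 11386 (0.75 ± 0.16, SE, adjusted p = 0.00569).

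RNA polymerase II, general factors and Mediator had 4 of 125 tested members higher (3.2%) and 20 lower (16%), with a median of -0.18. Of all genes tested 2.98% were higher and 5.75% lower. Polymerase subunit genes gave 8 of the lower calls among 16 tested (median -1.00) and Mediator genes 9 among 47. The initiation factor gene gtf2a2.S was at 72 and 84 on the beads, against 313 and 333 in total RNA (-2.04 ± 0.15, SE, adjusted p = 3.39e-10), while the gene of the largest polymerase subunit, polr2a.S, was at 8310 and 15005 against 7225 and 10180 and was not called (0.38 ± 0.16, SE, adjusted p = 0.110). The 4 higher genes were both copies of taf3 and of hexim1. The TFIID subunit gene taf3.S had 688 and 651 on the beads against 250 and 264 in total RNA (1.38 ± 0.12, SE, adjusted p = 8.12e-09), and taf3.L had 540 and 961 against 206 and 369. The HEXIM1 protein binds 7SK RNA and together they hold the elongation factor P-TEFb inactive. Values of hexim1.L were 472 and 818 against 234 and 278 (1.28 ± 0.20, SE, adjusted p = 3.8e-05). The 7SK RNA row, rn7sk, was itself higher at 816 and 620 on the beads against 139 and 108 in total RNA (2.53 ± 0.24, SE, adjusted p = 3.12e-08).

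Translation factors had 4 of 102 tested members higher (3.92%) and 6 lower (5.88%), near the 2.98% and 5.75% of all genes. With any 1 library left out 2 to 5 were higher and 4 to 8 lower, and the median was -0.20. The initiation factor gene eif3a.L was at 7251 and 8844 on the beads, against 3369 and 3495 in total RNA (1.22 ± 0.09, SE, adjusted p = 1.39e-09), whereas eif1ax.S was at 1530 and 1478 against 3967 and 3601 (-1.33 ± 0.08, SE, adjusted p = 2.15e-11). Both copies of the elongation factor gene eef1a1 were higher, with 2272 and 2008 for eef1a1.L on the beads against 1096 and 1002 in total RNA. The fourth higher row was eif2s1.S_gene49827, 1 of 3 called rows of that name, and 2 others were lower, which the sharing of reads between copies can affect. Under quantile normalization eif3a.L and prpf38b.L lost their calls.

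Histones stood mostly below total RNA without passing the threshold. Of 29 tested 1 was higher (3.45%) and 2 lower (6.9%), near the 2.98% and 5.75% of all genes, with a median of -0.38. The linker histone gene h1-10.S was at 547 and 528 on the beads, against 269 and 164 in total RNA (1.35 ± 0.20, SE, adjusted p = 1.6e-05). The maternal linker histone gene h1-8.L was at 587 and 695 against 1162 and 1730 (-1.15 ± 0.09, SE, adjusted p = 9.24e-10), and h2ac17.L at 201 and 175 against 514 and 511. The most abundant row, h2bc11.S, had 90000 and 100946 on the beads, against 123652 and 162229 in total RNA (adjusted p = 0.0709). Core histone genes come in near-identical copies, so the split of reads among them is uncertain.

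Messages that run cleavage or wait in the egg lay close to the median of all genes. No cell cycle regulator was called among 105 tested (median -0.11), and 0 were in the 4-library fit, beside 20 above and 32 below total RNA at an unadjusted p under 0.05 in limma. Of all genes tested 15.1% were above and 22.1% below at that p. The cyclin gene ccna1.L had 4818 and 3989 on the beads, against 5413 and 4026 in total RNA (-0.09 ± 0.06, SE, adjusted p = 0.282). Germ plasm messages had 0 calls among 33 in both fits (median -0.03), with 4 above and 8 below at an unadjusted p under 0.05. Chromatin regulators also had 0 calls among 73, but they leaned upward (median 0.14), with 33 above and 13 below at that p. Both bead libraries were above both total RNA libraries for 33 of them, while this held for 22.4% of all genes tested. The germ plasm kinase gene wnk2.L had 3575 and 4221 against 3700 and 4667, so the clutches differed more than the fractions. Of 77 maternal messages and clearance factors 1 was lower, the translational repressor gene zar2.S, with 746 and 591 on the beads, against 1671 and 1790 in total RNA (-1.38 ± 0.10, SE, adjusted p = 1.82e-10). The RNA-binding repressor gene pum2.L was at 3128 and 3201 against 3498 and 3414 (-0.13 ± 0.08, SE, adjusted p = 0.256). Many stored messages were thus on the beads at close to their level in total RNA, relative to the other genes.

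Transfer RNA genes, transcribed by RNA polymerase III, had the lowest median difference of the lists. Of 788 listed, 99 passed the minimum, with 69 distinct sets of values, and copies of the same sequence can share reads. The median value of these rows was 11 and 10 on the beads, against 38 and 29 in total RNA. Rows could thus pass through total RNA alone, where they were high, and the list's median and calls are drawn partly from such rows. In the 20-library fit 39 were lower and 0 higher, 51 and 0 in the 4-library fit, and 15 to 37 were lower with any 1 library left out, while the median was -1.91. The lower share in the 20-library fit was 39.4%, beside 5.75% of all genes, and rows with equal values were each counted. Values of the 99 rows summed to 5122 and 3789 on the beads, against 11983 and 9704 in total RNA and 438 and 626 in flowthrough. In the rows that passed, values were thus low in both separated fractions relative to total RNA. Rows could pass through total RNA alone and flowthrough was not part of the minimum, so this contrast is partly set by the choice of rows. At 5 hpf the sums were 164 and 126 on the beads against 192 and 184 in total RNA. The lysine row trnak-uuu_gene38605 was at 170 and 79 on the beads, against 842 and 696 in total RNA (-2.71 ± 0.51, SE, adjusted p = 0.000274). The glutamine row trnaq-cug_gene36424 was at 0 and 0 against 108 and 92, and 2 glycine rows with equal values, trnag-ucc_gene40698 and trnag-ucc_gene48964, were at 0 and 0 against 32 and 25. The arginine row trnar-ucg_gene38518, highest of the group, had 914 and 828 against 1220 and 1109 and was not called (adjusted p = 0.515). The U2 spliceosomal RNA row rnu2 had 1142 and 457 on the beads, against 3047 and 2307 in total RNA, a call (-1.87 ± 0.54, SE, adjusted p = 0.0297) that was lost without the bead library of clutch 2, without either total RNA library and without the block (adjusted p = 0.0765 to 0.182).

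**Figure D4:**
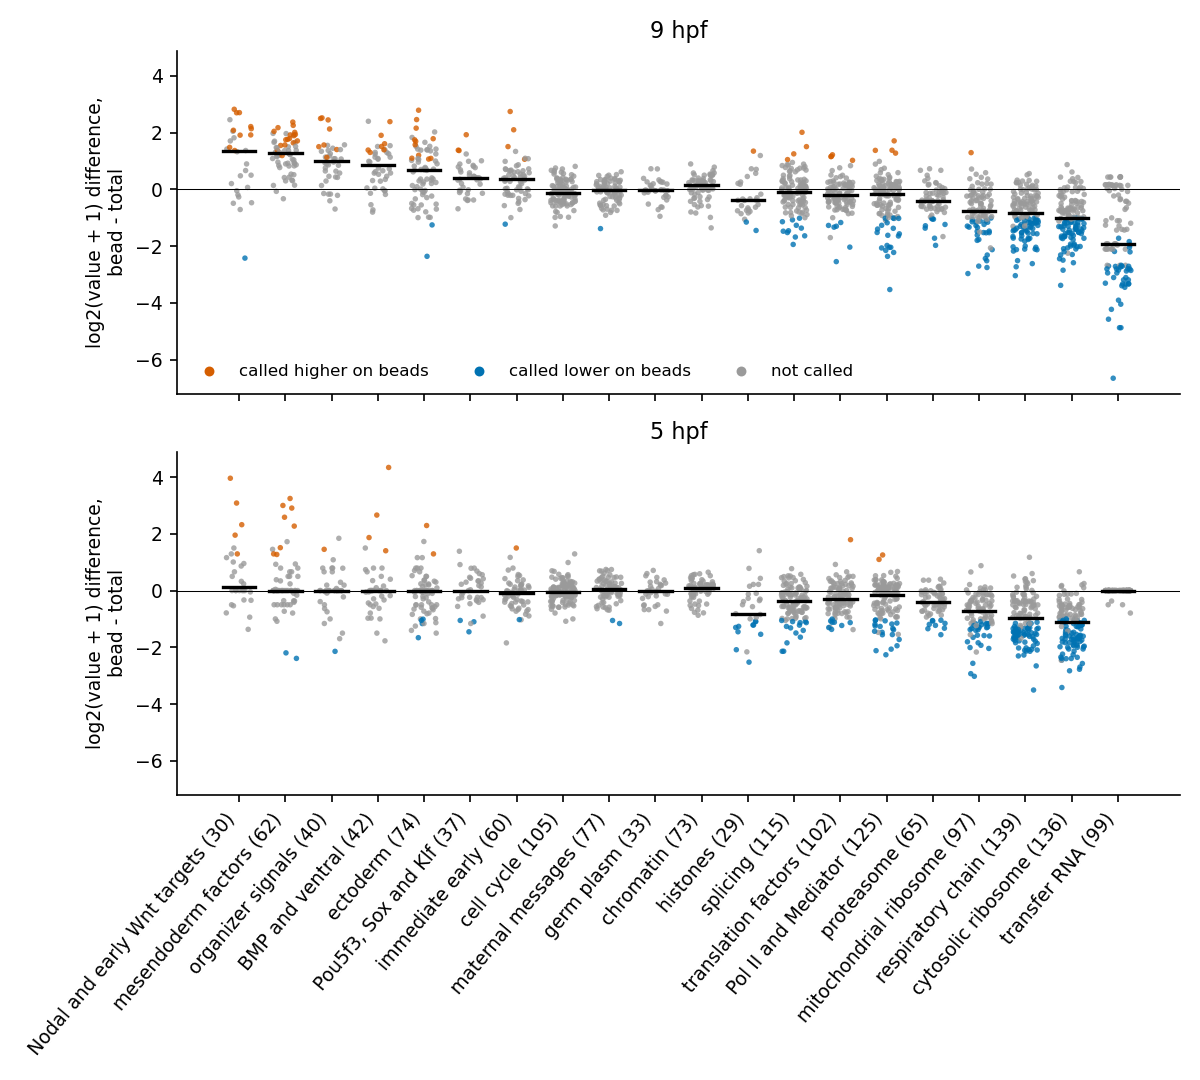
Difference between bead and total RNA (y axis, log2(value + 1), bead minus total) for each tested member of 20 gene lists at 9 hpf (upper) and 5 hpf (lower), with the number tested in brackets. Orange points were called higher on the beads, blue points lower and grey points neither, and black bars are list medians, which run from 1.37 for the Nodal list to -1.91 for transfer RNAs at 9 hpf.

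Where both the L and S copies of a gene were called, the calls had the same direction. Among 4896 pairs with both copies tested, both were higher in 25 and both lower in 83, and 0 pairs were called in opposite directions. The L copy alone was higher in 60 pairs and the S copy alone in 73, and the L copy alone was lower in 129 and the S copy alone in 146. Of the 408 pairs with 1 copy called, the other copy had a difference of the same sign in 313. The share of such pairs among all pairs was not counted, and similar copies can share reads. Pairs with both copies higher included gsc, has2, hes5.8, ier5, lefty, sox17a, sox17b.1, ventx1.1 and zic1 among developmental regulators, and eef1a1, hexim1, hmgn1, luc7l3, ptma, sfpq and taf3 among general nuclear and translation genes. The prothymosin gene ptma.L, for example, differed by 2.17 and ptma.S by 1.37, and the nucleosome-binding protein gene hmgn1.L by 1.40 and hmgn1.S by 1.76. By name, 302 of the 609 higher genes carry a gene symbol, 150 a LOC number and 146 another gene model label. Among the 1176 lower genes these counts were 817, 231 and 111. Of all 20465 genes tested, 16141 carry a symbol and 2933 a LOC number. A symbol was thus less common among called genes than among all, most so among the higher ones. A call in 1 copy alone is not shown to differ from the other copy, since that difference was not tested.

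The contrast at 5 hpf came from other libraries of the same clutches, and was used to see which calls were shared by the 2 times. Among the same 20465 genes, the beads held 158 above total RNA at 5 hpf (0.772%) and 1192 below it (5.82%). Lower genes recurred, with 607 lower at both times, 51.6% of the lower genes of 9 hpf and 50.9% of those of 5 hpf. Of the higher genes 58 were so at both times, 9.52% of the 9 hpf set and 36.7% of the 5 hpf set, and 16 genes higher at 9 hpf were lower at 5 hpf. The genes lower at 9 hpf had a median difference of -1.49 then and -1.16 at 5 hpf, and those higher at 9 hpf had 1.94 then and 0.00 at 5 hpf. Of the 609 higher genes 210 had an egg mean under 1, a class with a median of 0.00 at 5 hpf. A gene near 0 in both fractions has a difference near 0, so the 0.00 at 5 hpf does not show that a difference was lacking. Between these times the counts were 252 higher (1.23%) and 1044 lower (5.1%) at 6 hpf, 618 (3.02%) and 1226 (5.99%) at 7 hpf, and 429 (2.1%) and 1167 (5.7%) at 8 hpf.

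List medians differed in how they ran over time. Ribosomal proteins had medians of -1.10, -1.07, -1.02, -1.02 and -1.00 at 5, 6, 7, 8 and 9 hpf, with 74 lower members at 5 hpf and 57 lower at both 5 and 9 hpf. Respiratory chain genes had medians of -0.97 at 5 hpf and -0.83 at 9 hpf and 42 members lower at both. Mesendoderm factors had medians of 0.00, 0.50, 1.86, 1.24 and 1.29 over the 5 times, so the median was highest at 7 hpf. Organizer signals had medians of 0.00, 0.00, 0.66, 0.85 and 1.02. Transfer RNAs had 0.00 at 5 and 6 hpf, -0.83 at 7 hpf, -1.98 at 8 hpf and -1.91 at 9 hpf. At 5 hpf 42 of the 62 mesendoderm factors and 98 of the 99 transfer RNA genes were under 10 in all 4 libraries.

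Whether the difference itself had changed was tested as an interaction of fraction and time. It was more positive at 9 than at 5 hpf for 232 genes (1.13%) and more negative for 30 (0.147%). Without 1 of the 4 libraries of 9 hpf the count of more positive genes was 140 to 204, the lowest without the total RNA library of clutch 2, and that of more negative genes 4, 13, 18 or 132, the last without the bead library of clutch 1. Of these, 34 of the 232 and 11 of the 30 were under 10 in all 4 libraries of 5 hpf, so that their test mostly repeats the difference at 9 hpf. For hdgf.L the difference was 1.82 at 9 hpf and -0.06 at 5 hpf, an interaction of 1.88, and its bead values at 5 hpf were 1360 and 1769 against 1571 and 1656 in total RNA. For snai1.L the interaction was 2.06, with 138 and 130 on the beads at 5 hpf against 146 and 154 in total RNA. For ier5.L it was 2.22, with 274 and 191 at 5 hpf against 149 and 168. Of the splicing list 7 genes were more positive at 9 hpf and 0 more negative, 5 of them hnRNP genes. The gene hnrnpu.L, for one, was at 18876 and 21138 on the beads against 12352 and 11386 in total RNA at 9 hpf, and at 3700 and 3869 against 7911 and 7103 at 5 hpf, so that it changed sides (interaction 1.74). The histone list had 5 more positive and 0 more negative, and the chromatin list 2 and 0. Of these hmgb2.L, an abundant chromatin protein gene, differed by 0.23 at 9 hpf and by -0.87 at 5 hpf. In the histone list h4c4.L, named outside the rule, differed by 0.57 at 9 hpf and -2.09 at 5 hpf. Of the mesendoderm factors 4 of 62 were more positive and 2 more negative.

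Total RNA itself changed over the same hours. That comparison shares the 9 hpf total RNA libraries with the main comparison, so only the counts are set side by side. In total RNA 1850 genes were higher at 9 than at 5 hpf (9.04%) and 563 lower (2.75%). The minimum of 10 was set on the libraries of 9 hpf alone, so genes lost by then could not enter. Genes absent at 5 hpf could, and these counts and those of the lists therefore lean toward higher genes. Of the mesendoderm list 53 of 62 were higher and 0 lower, of the Nodal list 21 of 30 and 0, and of the transfer RNA genes 96 of 99 and 0. Ribosomal proteins had 0 higher and 3 lower of 136. At 5 hpf 42 of the 62 mesendoderm factors and 98 of the 99 transfer RNA genes were under 10 in all 4 bead and total RNA libraries. Their counts thus follow partly from the minimum, and no conclusion is drawn from the rise. In the bead comparison the medians of these lists had opposite signs, with the limit on transfer RNA rows given above.

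At 9 hpf bead libraries of experiment 2, from 2 other clutches, were set against their own flowthrough RNA. These bead libraries stood apart, with 14663 and 12814 genes above 0 against 28348 and 26114 in those of experiment 1. Here the beads held 1715 of the 20465 genes above flowthrough (8.38%) and 4709 below it (23%), and the median of all genes was -1.40, so values of that comparison are shifted downward. Of the 609 genes higher on the beads in experiment 1, 297 were higher and 33 lower in experiment 2. Of the 1176 lower genes, 36 were higher and 377 lower there. Mesendoderm factors had 28 higher and 3 lower of 62, and ribosomal proteins 1 higher and 45 lower of 136. Transfer RNAs had 4 higher and 6 lower of 99.

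Markers of tissues that a blastula should lack were low. Of 43 genes of muscle, nerve, blood, liver and pancreas in the table, 3 passed the minimum and 26 were at 0 in all 4 libraries, and the values of the list summed to 89 and 77 on the beads against 65 and 94 in total RNA. The insulin row ins.L, called lower at 13 and 5 against 42 and 31, lost its call in 3 of the 4 fits without a library (adjusted p = 0.0750 to 0.374). Of 23 follicle, ovary and adult blood markers 5 passed, with sums of 619 and 637 against 541 and 558, and 0 were called in either fit, with 1 at an unadjusted p under 0.05 in limma. Its largest part was the steroid enzyme gene cyp17a1.L at 271 and 314 against 259 and 355. Cadherins, protocadherins and integrins had 2 of 46 tested members higher and 0 lower (10 and 0 in the 4-library fit, 1 to 3 higher with any 1 library left out). In the 20-library fit 4.35% of this list was higher, beside 2.98% of all genes. Both higher members were protocadherin-7 rows, with pcdh7.S at 147 and 192 on the beads, against 54 and 52 in total RNA (1.65 ± 0.39, SE, adjusted p = 0.00271).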

How the data were processed

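The authors deposited 1 table of 50489 genes by 54 libraries, in which each value is a score, a DESeq2-normalized value rounded to a whole number. The submitters' processing notes name Salmon 0.12.0 and DESeq2 for what the authors did, and no source used here states the genome build. Ribosomal RNA was depleted, per the labels' protocols, and how many embryos made a library was not stated. A test for raw counts was not run, since the values are normalized. From the deposited values limma-trend (limma 3.58.1, statmod 1.5.0, R 4.3.3, robust) was fitted on log2(value + 1) to the 20 bead and total RNA libraries of experiment 1, and p-values were adjusted by Benjamini-Hochberg over 20465 genes. Replicates are clutches, per the design text, and the same 2 gave all fractions of experiment 1, so same-numbered libraries were paired. Their deviations from the group means correlated at 0.584 to 0.669 across the 5 times. The fit was first tested on simulated data. These did not imitate genes near 0 at the early times and high later, so the fit was not checked for them. Alternatives were fits without the clutch, of the 4 or 8 libraries alone or with flowthrough added, other pseudocounts and filters, quantile normalization and each library left out. Symbols came from the table, and 15287 of 16141 matched RefSeq.

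Members, lists and tests were chosen with earlier results of these data known. The rule for names took called genes that have a symbol, no overlap between fractions and at least 50 as the mean of the fraction with more RNA, and kept the 10 largest differences each way. It added up to 3 called members of each list by adjusted p, its most abundant uncalled member, and the 5 most abundant called genes each way. Other genes were named after their values were seen.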

Additional observations from a re-analysis of the deposited data

Results flagged for a closer look

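For 24 of the named genes the interaction test in limma (adjusted p under 0.05 and at least 2-fold) set the bead to total RNA difference at 9 hpf apart from that at 5 hpf. For 8 of them, namely btg-x_gene37239, f2rl3.S, rtbdn.S, has2.L and the 4 transfer RNA rows, all 4 values at 5 hpf were under 10, so the test mostly repeats the difference at 9 hpf and shows no change of an earlier one. The other 16 had a value of 10 or more at 5 hpf. Of the 24, 17 had the more positive difference at 9 hpf. The interaction was 6.55 for btg-x_gene37239, 4.66 for f2rl3.S, 3.53 for rtbdn.S, 2.95 for has2.L, 2.37 for pcdh7.S, 2.22 for ier5.L, 2.19 for hes4.L and 2.11 for ier5.S. It was 2.06 for snai1.L, 1.88 for hdgf.L, 1.74 for h1-10.S, 1.74 for hnrnpu.L, 1.55 for rn7sk, 1.26 for not.L, 1.20 for sfpq.S, 1.10 for hmgb2.L and 1.01 for marcksl1.S. The other 7 had the more negative difference at 9 hpf. It was -3.03 for ventx2.2.S, -4.07 for trnaa-ugc_gene39230, -4.80 for usp36.S_gene31866, -4.87 for both trnag-ucc_gene48964 and trnag-ucc_gene40698, -5.77 for rbis.L and -5.86 for trnaq-cug_gene36424. Values of rows at or near 0 in a fraction depend on the pseudocount.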

How the results depend on the processing

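Of the 104 named genes, none with a call changed the sign of its 9 hpf difference under any alternative that tested it. Fits that changed only the block, the libraries of other times or fractions, or the filter leave that difference as it was. A sign could thus change only with another pseudocount, quantile normalization, or a library or clutch left out. For counts, lists and the interaction a change of direction was not scored. Higher and lower genes at 9 hpf numbered 363 and 785 with no replicate block, 358 and 388 in the 4 libraries with no block, and 919 and 1144 in the 4 libraries with the block. A pseudocount of 8 gave 916 higher, quantile normalization 1117, and the 8 libraries of 8 and 9 hpf, an alternative chosen after seeing the data, 909 and 1237. The interaction gave 79 more positive and 8 more negative genes with no block, 444 and 85 with a pseudocount of 8, 19 more negative with 0.5 and 89 more negative under quantile normalization. At 5 hpf 81 genes were higher and 793 lower with no block, 96 higher with a pseudocount of 8 and 736 lower under quantile normalization. With a library of 9 hpf left out, 342 to 499 genes were higher (381 without the total RNA library of clutch 1) and 777 to 1573 lower at 9 hpf. The interaction then gave 140 to 204 and 4 to 132, the second count being 13 without that library. The cause was not tested. Of the 609 and 1176 genes, 562 and 1038 were called in the 4-library fit, and 291 and 648 without the bead library of clutch 2. Of the 104 named genes 18 lost their call without that library. Leaving out a whole clutch left no residual degree of freedom, so counts were not run. A lone sample was assumed to vary like the other groups. Reads per library are unknown, which limits what a value near 0 says.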
